A study of Mus musculus with 60 samples.

Results

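Enteroendocrine cells are the hormone-secreting cells of the gut epithelium. Their differentiation was read here through 10 genes, chosen by name from the gene column of the deposited table out of 24905 genes with values in every comparison. The lineage factors were Neurog3, Fev, Insm1, Neurod1 and Pax6, and the hormone and granule genes were Chga, Chgb, Gcg, Cck and Tph1. All 10 had a value in all 13 comparisons. No member passed the threshold of the authors' test (false discovery rate p under 0.05) in any comparison. The 50 values of the hormone and granule genes after treatment lay mostly a little above 0, whereas the 50 values of the lineage factors lay on both sides of it, with wider intervals.

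The RNA came from mouse duodenum organoids, which are cultures of intestinal epithelium grown from crypts in Matrigel, and was sequenced from the 3′ ends of transcripts. Samples fell into 20 groups of 3 by genotype, treatment and time. WT-dTAG, homozygous CDK2-dTAG and homozygous CDK5-dTAG organoids received 250 nM dTAG-13 or the solvent DMSO for 6 or 24 h. dTAG-13 is a small molecule that brings a tagged protein to the cell's ubiquitin machinery for degradation, so that the cyclin-dependent kinase CDK2 or CDK5 is the target in the tagged genotypes. WT-cKO and homozygous CDK2-cKO (conditional knockout) organoids received 1 uM 4-hydroxytamoxifen (4-OHT), a ligand used to switch on an inducible Cre recombinase, or DMSO for 24 or 48 h. The labels do not give the Cre driver or whether WT-cKO organoids carry the Cre. How many mice or organoid lines stand behind the 3 samples of a group is not given either. The spread between these samples may therefore be technical, and the p-values cannot stand for a spread between mice.

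An enteroendocrine cell arises from a crypt progenitor that escapes Notch signalling and switches on Neurog3, a basic helix-loop-helix transcription factor that is present only briefly. Neurog3 is followed by a second wave of transcription factors, among them Neurod1, Insm1, Fev and Pax6, some of which persist in the mature cell. The mature cell stores peptide hormones or serotonin in dense-core granules, whose matrix proteins are the chromogranins. The factors and the products mark different stages of this path and were described apart.

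Basic helix-loop-helix factors bind the E-box, CANNTG, and CAGATG with its reverse complement CATCTG is the form usually given for Neurod1 and Neurog3. Promoter windows of 300 bases, from 250 before to 50 after the transcription start, were available from RefSeq (GRCm38.p6) for 9 of the 10 genes, in 11 windows, since Pax6 and Tph1 had more than 1 start. Insm1 had no entry. On either strand CANNTG occurred in 8 of the 11 windows, and in 72.3% of all 32851 windows of the same length. CAGATG or CATCTG, which is itself a CANNTG, occurred in 2 of the 11 and in 17.2% of all windows. The 3 windows below are those of the gene at the head of the lineage and of the hormone genes with the smallest errors, which are also the ones that hold CAGATG. Gcg has 2 copies and Cck has 1. Capitals mark CANNTG. A match is a string of letters and not a shown binding site. The Neurog3 window lies on the + strand at chr10:62132840-62133139, that of Gcg on the - strand at chr2:62483604-62483903, and that of Cck on the - strand at chr9:121495645-121495944.
Neurog3: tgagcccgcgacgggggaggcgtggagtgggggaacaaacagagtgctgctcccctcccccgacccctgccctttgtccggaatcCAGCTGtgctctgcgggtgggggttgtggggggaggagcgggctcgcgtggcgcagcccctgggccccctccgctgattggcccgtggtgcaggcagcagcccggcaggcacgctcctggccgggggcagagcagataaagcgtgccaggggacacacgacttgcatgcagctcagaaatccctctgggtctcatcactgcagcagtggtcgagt
Gcg: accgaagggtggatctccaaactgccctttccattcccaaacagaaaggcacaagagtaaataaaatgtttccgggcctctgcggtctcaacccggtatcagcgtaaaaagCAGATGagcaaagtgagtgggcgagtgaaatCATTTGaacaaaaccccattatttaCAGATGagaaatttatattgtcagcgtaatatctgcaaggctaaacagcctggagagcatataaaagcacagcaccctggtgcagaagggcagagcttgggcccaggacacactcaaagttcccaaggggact
Cck: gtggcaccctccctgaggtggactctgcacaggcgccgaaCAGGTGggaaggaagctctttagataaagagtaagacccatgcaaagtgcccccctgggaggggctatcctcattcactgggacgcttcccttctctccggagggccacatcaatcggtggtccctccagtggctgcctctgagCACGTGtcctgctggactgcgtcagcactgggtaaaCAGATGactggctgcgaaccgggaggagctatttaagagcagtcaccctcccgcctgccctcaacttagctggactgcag

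The deposited table holds the authors' comparisons, not values per sample. Expression levels, the depth of each library and the spread of single samples are therefore unknown, and fewer enteroendocrine cells cannot be told apart from less RNA per cell. Each value below is the authors' log2 fold change of treatment against DMSO at the same time in the same genotype (or of later against earlier DMSO), from the authors' deposited table. Its standard error was derived from the deposited p-value, on the assumption of a Wald-type test, and intervals are 95% normal intervals. The median standard error over the 13 comparisons was 0.260 for Cck, 0.271 for Gcg, 0.313 for Neurod1, 0.330 for Insm1, 0.410 for Tph1, 0.455 for Chga, 0.478 for Chgb, 0.576 for Neurog3, 0.647 for Fev and 0.876 for Pax6. These compare with a median of 1.17 over all genes. In 11826 genes this median was 1 or less, the members among them. These genes are called the better measured genes here and serve as the background where a share of positive values is read. The errors of Chga (0.451 to 0.510) and Chgb (0.478 to 0.535) changed little between comparisons, those of Pax6 more (0.713 to 1.24). How far a p-value follows the spread of the 2 groups compared is therefore not known.

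By the authors' false discovery rate, 0 of the 100 member values in the 10 treatment comparisons passed, with 0 of 30 in the 3 comparisons between DMSO times. The smallest adjusted p among the members in the authors' deposited table was 0.989. Of all genes, 0.0642% were called in WT-cKO at 24 h, 0.0241% in CDK2-cKO at 48 h, and 0% in each of the other 8 treatment comparisons. Between DMSO times, 0.0803% were called in WT-dTAG, 0.0361% in CDK2-dTAG and 0% in WT-cKO. At an unadjusted p under 0.05 by the same test stood 4 of the 100 treatment values, with 1.51% of the values of all genes and 2.36% of those of the better measured ones, and 0 of the 30 time values. The absence of adjusted calls among 10 genes is therefore what the background share of nearly every comparison would give, and the intervals carry the information. An interval that lay wholly within a 2-fold change either way was found for 28 of the 50 treatment values of the hormone and granule genes and for 12 of the 50 of the lineage factors. A 2-fold fall lay outside the interval for 46 of the 50 hormone and granule values and for 33 of the 50 factor values. A 2-fold rise lay outside for 31 and 21 of them.

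**Figure D1:**
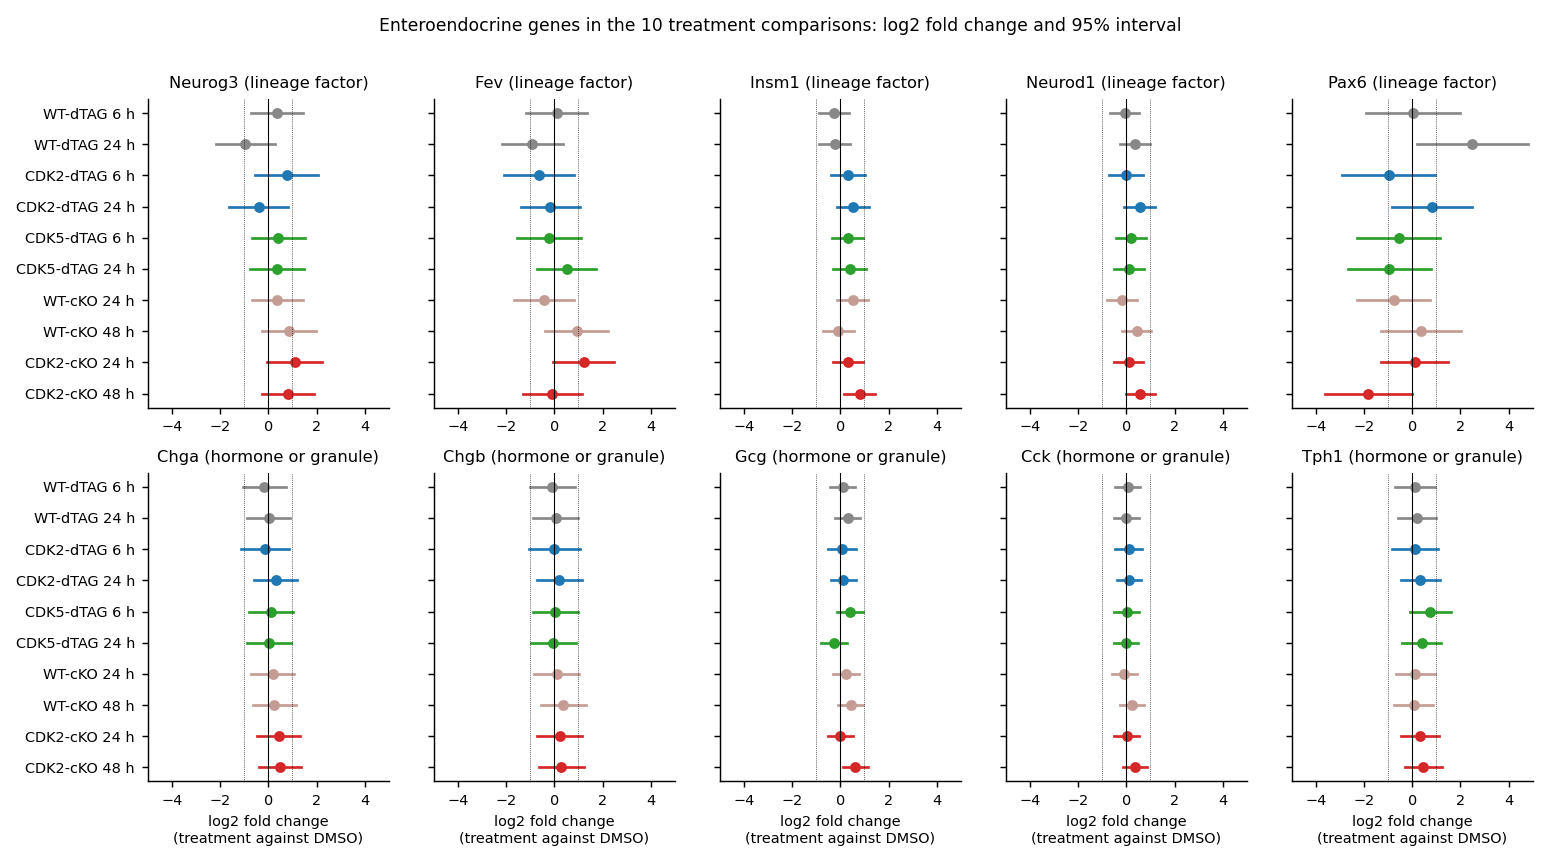
Log2 fold change of treatment against DMSO (points, x axis) with its 95% interval (lines) for each of the 10 genes in the 10 treatment comparisons (rows), from the authors' deposited table; dotted lines mark a 2-fold change. The intervals of Cck are all inside the dotted lines, while those of Neurog3, Fev and Pax6 all cross at least 1 of them.

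Neurog3 (GRCm38 chromosome 10, 62133090 to 62134763, + strand), which commits a progenitor to the endocrine fate, had a positive value in 8 of the 10 treatment comparisons. In WT-dTAG organoids under dTAG-13 its log2 fold change in the authors' deposited table was 0.37 at 6 h and -0.96 at 24 h. In CDK2-dTAG it was 0.77 and -0.40 at the same times, and in CDK5-dTAG 0.42 and 0.35. Wild-type and CDK2-dTAG organoids thus had a positive value at 6 h and a negative one at 24 h, with every interval including 0. Under 4-OHT the authors' deposited table gave 0.38 at 24 h and 0.84 at 48 h in WT-cKO, and 1.10 and 0.82 in CDK2-cKO. All 4 were positive. The 24 h value in CDK2-cKO had the smallest unadjusted p of the gene (p = 0.0589, false discovery rate p = 0.990 by the authors' test) and an interval from -0.04 to 2.24.

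Fev (chromosome 1, 74881509 to 74885419, - strand), an ETS factor of serotonin neurons that also marks endocrine progenitors, was positive in 4 of 10. Its values in the authors' deposited table were 0.10 and -0.91 in WT-dTAG at 6 and 24 h, -0.63 and -0.16 in CDK2-dTAG, and -0.23 and 0.51 in CDK5-dTAG. Under 4-OHT they were -0.42 at 24 h and 0.92 at 48 h in WT-cKO, and 1.21 and -0.08 in CDK2-cKO. The order of the 24 and 48 h values was thus opposite in the wild type and the knockout. Each of these intervals included 0. The 24 h value in CDK2-cKO came closest to excluding it, with an interval from -0.03 to 2.46 (unadjusted p = 0.0564 by the authors' test).

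Insm1 (chromosome 2, 146221921 to 146225020, + strand), a zinc-finger factor of endocrine differentiation, was measured with an error about that of the hormone genes. Its values were -0.26 and -0.23 in WT-dTAG at 6 and 24 h, 0.33 and 0.54 in CDK2-dTAG, and 0.30 and 0.39 in CDK5-dTAG, by the authors' deposited table. The wild type was below 0 at both times and both tagged genotypes were above it. Under 4-OHT the authors' deposited table gave 0.52 at 24 h and -0.08 at 48 h in WT-cKO, against 0.31 and 0.80 in CDK2-cKO. The last of these, an interval of 0.16 to 1.45, had an unadjusted p of 0.0141, the smallest of all member values, and a false discovery rate p of 0.996 in the authors' test.

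Neurod1 (chromosome 2, 79452521 to 79456751, - strand), a basic helix-loop-helix factor downstream of Neurog3, was positive in 7 of 10. It stood at -0.07 and 0.35 in WT-dTAG, -0.003 and 0.56 in CDK2-dTAG, and 0.19 and 0.11 in CDK5-dTAG, in the authors' deposited table. Under 4-OHT it stood at -0.18 and 0.44 in WT-cKO and at 0.11 and 0.58 in CDK2-cKO, so that the 48 h value was the higher one in both genotypes. The largest value, 0.58 in CDK2-cKO at 48 h, had an interval from -0.01 to 1.17 (unadjusted p = 0.0549 by the authors' test). Of the factor intervals within a 2-fold change, 7 were those of Neurod1 and the other 5 those of Insm1.

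Pax6 (chromosome 2, 105668900 to 105697364, + strand), a paired-box and homeobox factor of several hormone genes, had the widest intervals of the members and values spread over both signs. In the authors' deposited table it was 0.04 and 2.50 in WT-dTAG at 6 and 24 h, -0.97 and 0.81 in CDK2-dTAG, and -0.56 and -0.96 in CDK5-dTAG. Under 4-OHT it was -0.77 and 0.37 in WT-cKO and 0.11 and -1.81 in CDK2-cKO. The extreme values of either sign thus came from a wild type under dTAG-13 and from the knockout. The value of 2.50 had a standard error of 1.17 and an unadjusted p of 0.0324, and that of -1.81 a standard error of 0.91 and an unadjusted p of 0.0470, by the authors' test, with false discovery rate p-values of 1.00 and 0.996.

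Turning to the products, Chga (chromosome 12, 102554969 to 102565028, + strand) encodes chromogranin A, a matrix protein of the secretory granule. Its values in the authors' deposited table were -0.17 and 0.01 in WT-dTAG at 6 and 24 h, -0.15 and 0.31 in CDK2-dTAG, and 0.11 and 0.03 in CDK5-dTAG. Under 4-OHT it stood at 0.18 and 0.25 in WT-cKO and at 0.44 and 0.49 in CDK2-cKO. Both knockout values were above both wild-type ones, by less than the standard error of any of them.

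Chgb (chromosome 2, 132781278 to 132795079, + strand), the gene of chromogranin B, had a narrow span of values, from -0.09 to 0.37 in the authors' deposited table. It was -0.09 and 0.06 in WT-dTAG, -0.004 and 0.21 in CDK2-dTAG, 0.04 and -0.03 in CDK5-dTAG, 0.09 and 0.37 in WT-cKO, and 0.22 and 0.30 in CDK2-cKO. The standard error of this gene never fell below 0.478, so that the spread among its 10 values was smaller than the error of any of them.

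Gcg (chromosome 2, 62474530 to 62483650, - strand) encodes proglucagon, which intestinal L cells process to glucagon-like peptides. It was positive in 9 of 10 treatment comparisons. The authors' deposited table gave 0.10 and 0.31 in WT-dTAG, 0.06 and 0.12 in CDK2-dTAG, and 0.42 and -0.26 in CDK5-dTAG. Under 4-OHT it gave 0.25 and 0.44 in WT-cKO and 0.01 and 0.62 in CDK2-cKO, so that 48 h stood above 24 h in both genotypes. The value of 0.62 had an interval of 0.10 to 1.14, with an unadjusted p of 0.0203 and a false discovery rate p of 0.996 by the authors' test. In 9 of 10 comparisons the interval of Gcg lay within a 2-fold change, the exception being this one.

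Cck (chromosome 9, 121489824 to 121495694, - strand), the gene of cholecystokinin, the I-cell hormone that acts on gallbladder and pancreas, was the member with the smallest errors. In the dTAG genotypes its 6 values in the authors' deposited table lay between -0.02 and 0.11. Under 4-OHT it stood at -0.08 at 24 h and 0.25 at 48 h in WT-cKO, and at 0.02 and 0.35 in CDK2-cKO. In all 10 treatment comparisons its interval lay within a 2-fold change. After 24 h of dTAG-13 the interval ran from -0.40 to 0.62 in CDK2-dTAG and from -0.53 to 0.49 in CDK5-dTAG. A 2-fold change of Cck lay outside both. These intervals rest on the assumed form of the test and on samples whose spread may be technical.

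Tph1 (chromosome 7, 46644641 to 46672537, - strand) encodes tryptophan hydroxylase 1, the rate-limiting enzyme of serotonin synthesis in enterochromaffin cells. All 10 of its treatment values in the authors' deposited table were positive. They were 0.10 and 0.20 in WT-dTAG at 6 and 24 h, 0.11 and 0.34 in CDK2-dTAG, 0.74 and 0.39 in CDK5-dTAG, 0.13 and 0.05 in WT-cKO at 24 and 48 h, and 0.33 and 0.47 in CDK2-cKO. Each interval included 0, and the smallest unadjusted p was 0.0858, in CDK5-dTAG at 6 h, by the authors' test. Of the better measured genes, 0.194% were positive in all 10 treatment comparisons. Tph1 was singled out from 10 members after its values were seen, and wild-type organoids were among the comparisons with positive values.

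Taking the members as groups, 42 of the 50 hormone and granule values were positive and 31 of the 50 factor values, or 73 of 100, where 49.3% of the values of the better measured genes were. The median of the 5 hormone and granule genes was above 0 in 9 of the 10 treatment comparisons, but small in most. It was 0.06 in WT-dTAG at 6 h and 0.06 at 24 h, 0.06 and 0.21 in CDK2-dTAG, and 0.11 and -0.02 in CDK5-dTAG. Under 4-OHT it was 0.13 and 0.25 in WT-cKO and 0.22 and 0.47 in CDK2-cKO. The factor medians were 0.04 and -0.23, -0.003 and 0.54, and 0.19 and 0.35 in the 3 dTAG genotypes in the same order, and -0.18 and 0.44 in WT-cKO and 0.31 and 0.58 in CDK2-cKO. Over the better measured genes the median never departed from 0 by more than 0.0134 in a treatment comparison. The members of a group come from the same cells, so they are not replicates of a condition and these medians carry no test. Several rest on 1 gene. Without Neurog3 or without Fev the factor median in WT-dTAG at 24 h went from -0.23 to 0.06, without Fev or without Pax6 that in WT-cKO at 24 h from -0.18 to 0.10, and without Neurog3 or without Insm1 that in CDK5-dTAG at 6 h from 0.19 to -0.02. The factor medians in WT-dTAG and CDK2-dTAG at 6 h and the hormone and granule medians in WT-dTAG at 6 h and CDK5-dTAG at 24 h also changed sign with 1 gene left out.

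Under 4-OHT, 10 of 10 members were positive in CDK2-cKO at 24 h, against 48.5% of the better measured genes, and 0 of 10 had an unadjusted p under 0.05, against 1.3% of all genes and 2.34% of the better measured ones. In CDK2-cKO at 48 h, 8 of 10 were positive, with Fev and Pax6 below 0, and 3 of 10 had an unadjusted p under 0.05 (Insm1, Gcg and Pax6, the last with a negative value). The share of all genes at that p was 2.21%, and 4.14% of the better measured genes. In WT-cKO at 48 h, 9 of 10 were positive and 0 of 10 reached that p, which 1.83% of all genes and 3.31% of the better measured ones did. In WT-cKO at 24 h, 6 of 10 were positive and 0 of 10 reached it, against 2.98% and 1.96%. The wild type was thus also on the positive side at 48 h.

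Whether the knockout differed from the wild type was tested directly, as the difference of their log2 fold changes at the same time with the standard errors combined. At 48 h the median difference, CDK2-cKO minus WT-cKO, was 0.18 for the hormone and granule genes and -0.02 for the factors. For Gcg the difference was 0.18 (interval -0.56 to 0.92) and for Cck 0.10 (interval -0.61 to 0.82), so a 2-fold difference between the genotypes lay outside both intervals. Insm1 had the smallest p of the factors there, with a difference of 0.89 and an interval of -0.02 to 1.79 (p = 0.0549 and adjusted p = 1.00 over all genes, from the authors' test values by a normal approximation with Benjamini-Hochberg adjustment). Pax6 had a difference of -2.18 and an interval of -4.61 to 0.26. At 24 h the factor median was 0.72, led by Fev at 1.63 (interval -0.13 to 3.39), and the hormone and granule median was 0.12. No member passed in either comparison of genotypes, in which 0% of all genes passed, and none had an unadjusted p under 0.05, against 1.78% of all genes at 24 h and 1.27% at 48 h.

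**Figure D2:**
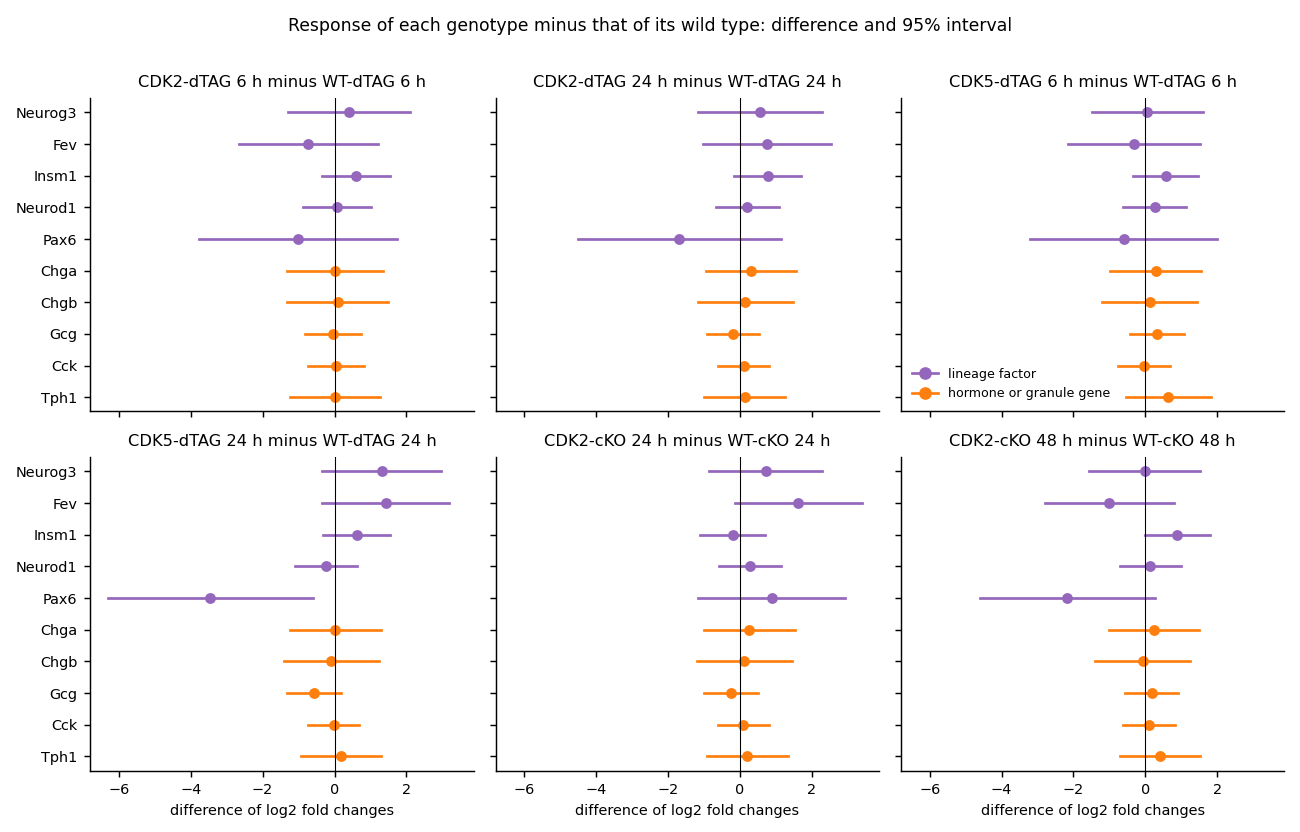
Difference between the response of a genotype and that of its wild type at the same time (points, x axis, log2 scale) with its 95% interval (lines) for each gene (rows), in the 6 pairs. Nearly all intervals include 0; Pax6 in CDK5-dTAG at 24 h, at -3.46, does not.

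The dTAG genotypes were built for loss of the kinase protein within hours, which RNA does not show. At 6 h of dTAG-13 the median difference from WT-dTAG was 0.02 for the hormone and granule genes and 0.07 for the factors in CDK2-dTAG, and 0.29 and 0.05 in CDK5-dTAG. At 24 h it was 0.13 and 0.56 in CDK2-dTAG, and -0.03 and 0.62 in CDK5-dTAG. Neurog3 and Fev had their largest positive differences of the dTAG pairs in CDK5-dTAG at 24 h, at 1.31 (interval -0.35 to 2.97) and 1.42 (interval -0.34 to 3.18). The wild-type values of both genes were negative there, at -0.96 and -0.91 in the authors' deposited table, and those of CDK5-dTAG were 0.35 and 0.51. Insm1 was on the positive side in all 4 differences, at 0.59 and 0.77 in CDK2-dTAG and 0.56 and 0.62 in CDK5-dTAG, each with an interval that included 0. The 2 differences of each time share the WT-dTAG libraries, so these are not separate observations.

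Of the 60 differences between a genotype and its wild type, 0 passed after adjustment, with 0% of all genes in each of the 6 pairs, and 1 had an unadjusted p under 0.05. This was Pax6 in CDK5-dTAG at 24 h, with a difference of -3.46, a standard error of 1.46, a p of 0.0179 and an adjusted p of 1.00, computed from the authors' test values by the same approximation. The same p was reached by 2.05% of all genes in that pair, 1.32% in CDK2-dTAG at 24 h, 1.13% in CDK2-dTAG at 6 h and 1.06% in CDK5-dTAG at 6 h. The value rests mainly on the 2.50 of the wild type and only in part on the -0.96 of CDK5-dTAG. Cck, the gene with the smallest errors, had differences of 0.04 and 0.10 in CDK2-dTAG and of -0.03 and -0.03 in CDK5-dTAG at 6 and 24 h, all with a 2-fold difference outside the interval.

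Within the dTAG treatment comparisons themselves, 6 of 10 members were positive in WT-dTAG at 6 h and 7 of 10 at 24 h, 5 and 8 of 10 in CDK2-dTAG, and 8 and 6 of 10 in CDK5-dTAG. The share of positive values among the better measured genes was 48.4% to 52% in these comparisons. At an unadjusted p under 0.05, the count was 1 of 10 in WT-dTAG at 24 h (Pax6), where 1.08% of all genes and 1.84% of the better measured ones reached it. It was 0 of 10 in WT-dTAG at 6 h, against 0.799% and 1.31%. It was also 0 of 10 in CDK2-dTAG, against 0.903% and 1.63% at 6 h and 1.07% and 1.85% at 24 h. In CDK5-dTAG it was again 0 of 10, against 0.952% and 1.68% at 6 h and 1.99% and 3.57% at 24 h. Errors in CDK2-dTAG at 6 h were slightly larger than in WT-dTAG at 6 h, with a median ratio of 1.12 over the members. Pax6 was the exception, at 0.99. The standard errors of Chgb, Gcg and Cck were 0.535, 0.297 and 0.292 in CDK2-dTAG at 6 h. Between DMSO times in CDK2-dTAG they were 0.535, 0.296 and 0.291, and at 24 h of dTAG-13 0.478, 0.264 and 0.260. The comparisons with the larger errors share the 6 h DMSO group of CDK2-dTAG. Whether all samples of that group entered the authors' test is not given, and the source of the larger errors was not tested.

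The DMSO groups gave the values of the same genes over time in culture. In WT-dTAG between 6 and 24 h of DMSO, the hormone and granule median was 0.28 and the factor median -0.14. In CDK2-dTAG over the same hours the medians were 0.39 and -0.13, and in WT-cKO between 24 and 48 h they were 0.19 and -0.52. The better measured genes had medians of 0.01, -0.003 and -0.003. All 5 hormone and granule genes were above 0 in WT-cKO. Elsewhere the members of a group were not of 1 sign, and the factor median in CDK2-dTAG turned to 0.03 without Insm1 or without Pax6. Cck stood at 0.48 in WT-dTAG, 0.53 in CDK2-dTAG and 0.40 in WT-cKO in the authors' deposited table, with unadjusted p-values of 0.0675, 0.0693 and 0.124 by the authors' test. Tph1 stood at 0.63, 0.65 and 0.06, Chgb at 0.28, 0.39 and 0.09, and Gcg at 0.01, 0.21 and 0.47 in the same table of the authors. Chga was the exception among the products, at -0.03, -0.08 and 0.19. Among the factors, Pax6 stood at -1.35, -0.51 and -1.20 and Neurod1 at -0.29, -0.13 and -0.17, both below 0 in all 3 genotypes. Neurog3 at -0.14, 0.20 and -0.52, Insm1 at -0.10, -0.56 and 0.39, and Fev at 0.65, 0.36 and -1.11 lay on both sides of it. None of the 30 values had an unadjusted p under 0.05, which 3.28%, 2.72% and 1.42% of all genes had, and 6.33%, 5.4% and 2.46% of the better measured ones.

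Since the later DMSO group is the reference of the later treatment, both steps were also added, which gives the treated group against the earlier DMSO group without the level of the later one. This sum is a point value with no error, because its terms share libraries. In WT-cKO, 48 h of 4-OHT against 24 h of DMSO gave 0.90 for Gcg, 0.65 for Cck, 0.46 for Chgb, 0.43 for Chga and 0.11 for Tph1. The factors gave 0.32 for Neurog3, 0.31 for Insm1, 0.27 for Neurod1, -0.18 for Fev and -0.84 for Pax6. Neurog3 and Fev thus stood at 0.84 and 0.92 against a 48 h DMSO group in which they were at -0.52 and -1.11, and their sums came out smaller, whereas for Gcg and Cck both steps were positive. In the dTAG genotypes, 24 h of dTAG-13 against 6 h of DMSO gave Tph1 0.83 in WT-dTAG and 0.99 in CDK2-dTAG, and Cck 0.48 and 0.64. The hormone and granule medians of these sums were 0.33 in WT-dTAG, 0.60 in CDK2-dTAG and 0.46 in WT-cKO, and the factor medians were -0.26, 0.20 and 0.27.

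**Figure D3:**
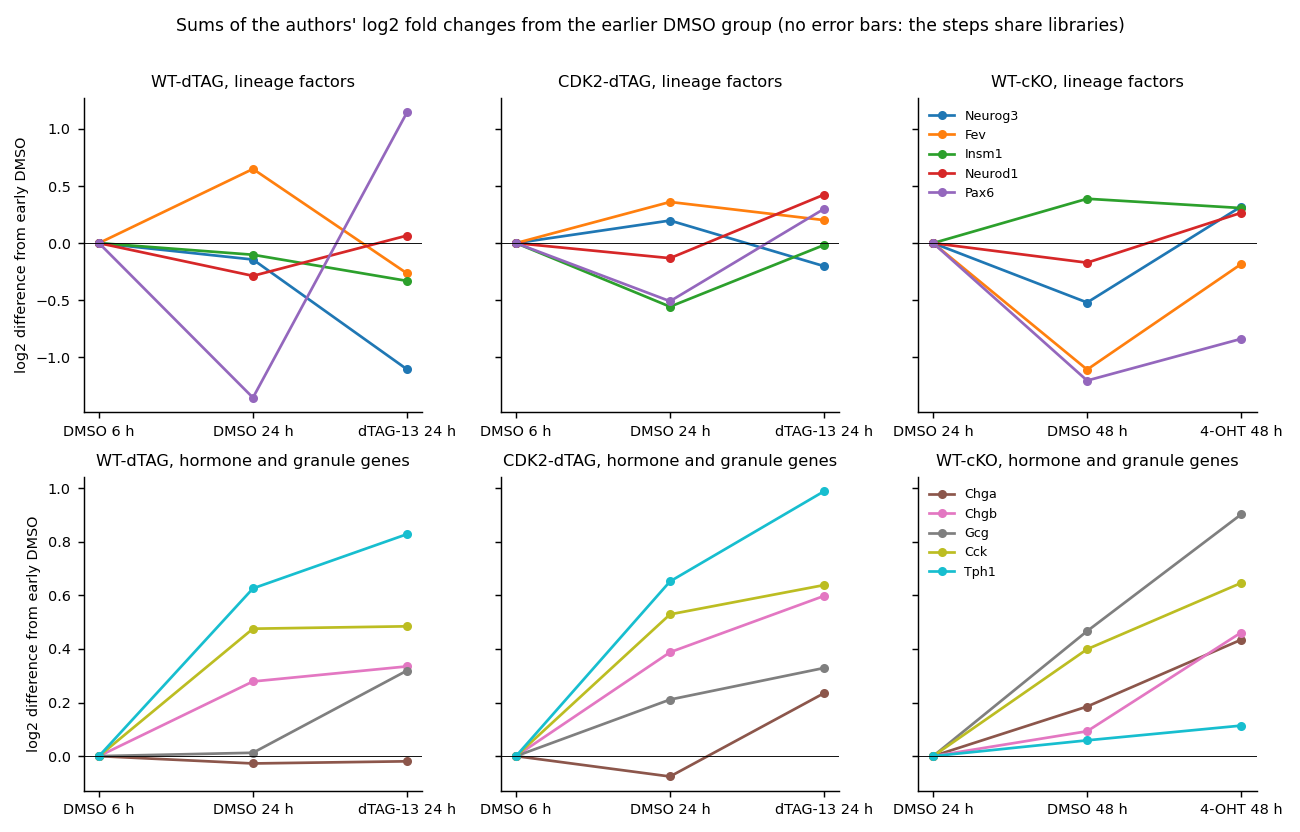
Log2 difference from the earlier DMSO group (y axis) at the later DMSO group and the later treated group (x axis) for the lineage factors (top) and the hormone and granule genes (bottom) in 3 genotypes; points are sums of the authors' log2 fold changes, with no error bars. The hormone and granule genes end above 0 in all 3 genotypes except Chga in WT-dTAG, at -0.02, while the factors end on both sides.

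The other genes of the enteroendocrine program were read through 4 lists of 71 genes, all with values: 20 further transcription factors, 15 further hormones, 24 genes of granules and amine synthesis, and 12 nutrient and hormone sensors. No listed gene passed the authors' test in any of the 13 comparisons; at an unadjusted p under 0.05 there were between 0 and 6 of the 71 in a comparison. In CDK2-cKO at 48 h, 51 of the 71 were positive and 20 negative with a median of 0.29, and 6 were higher and 0 lower at an unadjusted p under 0.05. Of all genes 37.3% were positive and 2.21% reached that p in either direction, and of the better measured ones 48.1% and 4.14%. Among the 48 better measured of the 71, 16 of 18 further factors, 7 of 9 further hormones, 14 of 16 granule genes and 4 of 5 sensors were positive. Over the full lists the counts were as follows. The further factors had 16 of 20 positive and a median of 0.42, the granule genes 18 of 24 and 0.34, and the sensors 8 of 12 and 0.90. Among the factors, in the authors' deposited table, Foxa2 stood at 0.55, Runx1t1 at 0.88 and Hhex, a factor of somatostatin cells, at 2.06. In the same comparison the authors' deposited table gave 0.68 for Pcsk1, the convertase that cleaves prohormones, 2.33 for Ffar1 and 1.09 for Ffar4, both receptors for long-chain fatty acids. The further hormones had a median of 0.05 and 9 of 15 positive over the full list, which includes poorly measured genes. The 9 better measured of them had a median of 0.14.

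In WT-cKO at 48 h, 38 of the 71 were positive and 33 negative, with a median of 0.13, and 2 were higher at an unadjusted p under 0.05. Positive were 39.3% of all genes and 48.6% of the better measured ones. Of the 71, 48 are better measured. Among these, 8 of 18 further factors, 7 of 9 further hormones, 14 of 16 granule genes and 3 of 5 sensors were positive. At that p stood 3.31% of the better measured genes and 1.83% of all genes, so the count of 2 is near the background. These were Foxa2 at 0.61 and Nmb, poorly measured and named only because the count is 2, at 2.61 in the authors' deposited table. The 20 further factors there had a median of -0.02 with 9 positive, and the 24 granule genes a median of 0.29 with 18 positive, which equals the count of positive granule genes in CDK2-cKO at 48 h. At 24 h of 4-OHT, 47 of the 71 were positive in CDK2-cKO and 36 in WT-cKO. There 39.1% and 42.7% of all genes were positive, and 48.5% and 47.3% of the better measured ones. In the dTAG comparisons the count of positive genes ran from 31 of 71 in WT-dTAG at 6 h to 42 of 71 in WT-dTAG at 24 h. In these 64.9% and 64.7% of all genes were positive, and 50.1% and 52% of the better measured ones. Since the 71 include poorly measured genes, neither share is an exact match. Single genes at an unadjusted p under 0.05 in the authors' deposited table included Scgn (-1.25), Bex2 (-1.24) and Prox1 (-1.62) in WT-dTAG at 6 h, Mnx1 (-0.69) and Ffar1 (-2.55) in CDK2-dTAG at 6 h, and Myt1 (2.02) in CDK2-cKO at 24 h. Some stood on opposite sides in different comparisons at that p. Ffar4 was at 0.98 in CDK5-dTAG at 24 h and at -1.15 in its wild type, and Iapp was at 1.33 in CDK5-dTAG at 24 h and at -1.52 in WT-cKO at 24 h, while Ffar1 was at 2.33 in CDK2-cKO at 48 h, all in the authors' deposited table.

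Over culture time under DMSO the same lists had 4 genes higher and 1 lower at an unadjusted p under 0.05 in CDK2-dTAG, 1 higher and 4 lower in WT-dTAG over the same hours, and 3 higher and 0 lower in WT-cKO. In CDK2-dTAG the authors' deposited table gave 1.15 for Pcsk1, 0.90 for Tac1, 0.81 for Ghrl, the gene of ghrelin, 0.65 for Gch1 and -0.73 for Mnx1. In WT-dTAG it gave 2.34 for Hhex, -1.56 for Slc18a2, -1.11 for Scgn, -0.53 for Foxa2 and -0.41 for Ddc, all values of the authors' deposited table. Of all genes, 2.72% reached that p in CDK2-dTAG and 3.28% in WT-dTAG, and of the better measured ones 5.4% and 6.33%. In WT-cKO these shares were 1.42% and 2.46%. The counts in CDK2-dTAG and WT-dTAG are thus near the share of the better measured genes. Their balance was opposite, and the difference between these genotypes was not tested.

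Markers of other epithelial cells were read beside these. At 48 h of 4-OHT all 10 enterocyte markers were below 0 in both genotypes, with a median of -0.89 in WT-cKO and -0.48 in CDK2-cKO, while 0 of them passed the authors' test. At an unadjusted p under 0.05, 5 of the 10 were lower in WT-cKO, among them Slc2a2 at -1.29 and Alpi at -0.90 in the authors' deposited table, and 2 in CDK2-cKO, Sis at -0.82 and Fabp1 at -0.98. In either direction that p was reached by 1.83% of all genes and 3.31% of the better measured ones in WT-cKO. In CDK2-cKO these shares were 2.21% and 4.14%. The 48 h DMSO group of WT-cKO, the reference of its 48 h values, itself had 10 of 10 enterocyte markers above the 24 h DMSO group. Their median was 0.51, with 0 passing the authors' test. At an unadjusted p under 0.05 stood Alpi at 0.92 and Lct at 1.36 in the authors' deposited table. Between these DMSO times 1.42% of all genes and 2.46% of the better measured ones reached that p. At 48 h of 4-OHT goblet markers had medians of 0.23 in WT-cKO and 0.31 in CDK2-cKO, with 7 of 9 positive in each. In the same order crypt stem cell markers had medians of 0.16 and 0.36, with 8 and 7 of 8 positive. Paneth markers had medians of 0.11 and 0.25, with 4 and 6 of 8 positive. Of the better measured genes, 48.6% were positive in WT-cKO and 48.1% in CDK2-cKO. The positive enteroendocrine values at 48 h therefore stood beside mostly positive values of goblet and stem cell markers and negative values of enterocyte markers in both genotypes. The part of cell composition in them was not tested. The 9 Notch pathway and switch genes had a median of 0.12 in WT-cKO and 0.30 in CDK2-cKO at 48 h, with 0 called. Dll4, a Notch ligand, stood at 0.86 in the knockout in the authors' deposited table.

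**Figure D4:**
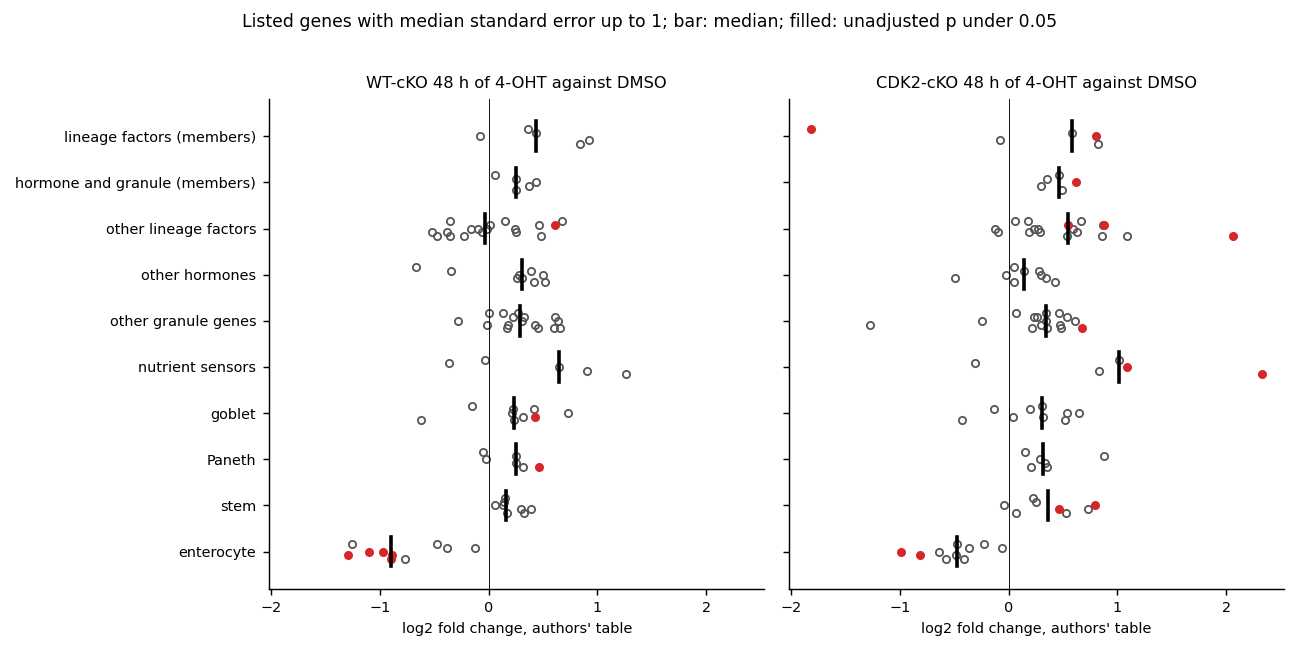
Log2 fold changes (x axis) of the better measured genes of each list (points) after 48 h of 4-OHT against DMSO in WT-cKO (left) and CDK2-cKO (right), by list (rows); bars are medians and filled points have an unadjusted p under 0.05 in the authors' deposited table. Enterocyte markers lie below 0 in both panels, and most enteroendocrine, goblet and stem cell genes lie above it, except the other lineage factors in WT-cKO, of which 8 of 18 do.

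Features of the whole table touch these values. In WT-cKO at 24 h of 4-OHT, 12 of 12 spermatid transcripts were positive, with a median of 5.50, and 8 of them passed the authors' test. These transcripts were also positive in 12 of 12 in WT-cKO at 48 h (median 0.96) and in CDK2-cKO at 24 h (median 1.14), and in 11 of 12 between DMSO times in WT-cKO (median 1.83), with 0 passing, and in 1 of 12 in CDK2-cKO at 48 h (median -0.70). The members in WT-cKO at 24 h had a factor median of -0.18 and a hormone and granule median of 0.13, and this comparison is the reference for the 24 h difference of CDK2-cKO. Only 1 of the 12 spermatid transcripts was better measured, so their medians are uncertain where none passed. The part of the spermatid signal in the member values was not tested. Tuft, neural and pancreatic islet markers, of which some share genes with enteroendocrine cells, were too poorly measured to read, with 1, 1 and 0 genes at a standard error of at most 1. Cdk2 mRNA, the knockout target, stood at -0.35 and -0.64 in CDK2-cKO at 24 and 48 h and at 0.26 and -0.53 in WT-cKO in the authors' deposited table. It passed the false discovery rate in none. At 48 h its unadjusted p by the authors' test was 0.00456 in CDK2-cKO and 0.0125 in WT-cKO. At 24 h it was 0.103 and 0.216. Both genotypes were thus below 0 at 48 h, so these values do not by themselves show the loss of Cdk2 in the knockout. A 3′ tag may lie outside the deleted part, which was not tested. In the dTAG genotypes the kinase protein was the target, and its loss was not measured by these data.

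Gene models of some members overlap others in GENCODE M21 (GRCm38). Neurog3 overlaps Fam241b on the opposite strand, Neurod1 overlaps Cerkl on the same strand and a lincRNA on the opposite strand, and Pax6 overlaps the antisense transcript Pax6os1. Fam241b was measured better than Neurog3, with a median standard error of 0.191, and stood at 0.45 in CDK2-cKO at 48 h in the authors' deposited table (unadjusted p = 0.0177, false discovery rate p = 0.996, authors' test), where Neurog3 stood at 0.82. How the counting assigned reads between such genes is not given in the sources used here, so the values of Neurog3, Neurod1 and Pax6 are less certain on that account.

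Finally, the genes whose values most resembled those of the members were sought among the better measured genes, as the Pearson correlation over the 10 treatment comparisons with the mean log2 fold change of each group. For the factors these were Rap1gap (r = 0.954), Luzp1 (0.941), Supt5 (0.927), Hs1bp3 (0.910) and Fermt1 (0.901). For the hormone and granule genes they were Sfpq (r = 0.935), Plce1 (0.923), Swt1 (0.914), Dusp6 (0.908) and Hnrnpd (0.904). None of the 10 is on the enteroendocrine lists. They are the highest of 11826 correlations, each over 10 points, and are given as a description.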

How the data were processed

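RNA from mouse duodenum organoids was made into 3′ mRNA libraries with a Lexogen QuantSeq kit (forward), per the labels' protocols, in 60 samples grouped by their labels. Salmon is named without a version, per the submitters' processing notes, and the sources used here give no build, annotation, filter or test. The authors' deposited table holds, per the file headers, each gene's log2 fold change, linear fold change (ratio) and p-value, the latter also adjusted by FDR and by Bonferroni, for 13 comparisons. Missing values are text there, so the columns carry the unit "other". It has 41018 gene rows, 24905 of them with values in every comparison. It was checked that the deposited FDR p-values equal a Benjamini-Hochberg adjustment. With no values per sample, depth is unknown and no count model was fitted. The planned comparisons used the authors' test as deposited.

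A standard error was obtained by dividing the absolute log2 fold change by the normal z that belongs to its two-sided p-value, and differences between genotypes combined them as independent. The scripts (Python 3.11.15, numpy 2.4.6, pandas 2.3.3, scipy 1.17.1) were tested on simulated data. Between 21.2% and 30.2% of genes in a comparison share a single log2 fold change to 3 decimals, 99.4% to 99.9% of them with a standard error above 1, so medians and shares over all genes follow that shared value and the better measured genes were used as background. The members and lists were chosen with earlier results of these data known. Named were all members, listed genes with an unadjusted p under 0.05 and a median standard error up to 1 (at most 4 per list and comparison), and the 5 genes most like each group. Alternatives were Bonferroni adjustment, adjustment over the better measured genes, t quantiles, centring, and leaving out members.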

Additional observations from a re-analysis of the deposited data

How the results depend on the processing

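No paired analysis was possible because the deposited table holds comparisons and no values per sample; for the same reason leaving out replicates, other size factors and a filter on low counts were not run. Counts of members called stayed at 0 under Bonferroni p-values, an adjustment over the better measured genes, t quantiles and centring, in the treatment comparisons, the DMSO time comparisons and the differences where each was run. The count of differences at an unadjusted p under 0.05 went from 1 to 2 of 60 with t quantiles. The count of member values at that p in the treatment comparisons was 4, and 5 after centring. Centring on the better measured genes moved a group median by at most 0.0134 and changed the sign of 1 of 26. Leaving out 1 member of a group of 5 moved its median by up to 0.392 and changed the sign of 8 of 26, 7 of these in treatment comparisons and with main values between -0.23 and 0.19, so the sign of these medians rests on single genes. Precision limits the reading of Neurog3, Fev and Pax6 most.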

Other observations

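Many genes share 1 log2 fold change within a comparison, and the all-gene median sits at it. In CDK2-cKO at 24 h of 4-OHT, 5689 genes (22.8%) stood at -0.101, and the median over all genes was -0.10, while the better measured genes had a median of -0.01. Between DMSO times in WT-dTAG, 6724 genes (27%) stood at 0.1 and the median over all genes was 0.10. Nearly all of these genes had standard errors above 1.

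Of the genes of other cell types, Sox9 was at an unadjusted p under 0.05 on the positive side in CDK2-dTAG at 24 h (0.47) and in CDK2-cKO at 24 h (0.57) and 48 h (0.47), and on the negative side with DMSO time in WT-dTAG (-0.56) and CDK2-dTAG (-0.61), in the authors' deposited table, none passing the false discovery rate. Sox9 is a factor of crypt stem and Paneth cells. The 0.47 and the -0.61 of CDK2-dTAG share its 24 h DMSO group. In WT-cKO at 48 h Sox9 stood at 0.30. Its difference from the wild type, singled out after the values were seen, was 0.48 (standard error 0.296) in CDK2-dTAG at 24 h. It was 0.46 (standard error 0.294) in CDK2-cKO at 24 h and 0.17 (standard error 0.294) at 48 h. In CDK2-dTAG at 6 h the difference was 0.05, and in CDK5-dTAG -0.003 and -0.05 at 6 and 24 h. None of these differences passed after adjustment over all genes. Within the enteroendocrine lists Slc18a2, the vesicular monoamine transporter, stood at 1.29 in WT-dTAG at 24 h of dTAG-13 and at -1.56 with DMSO time in the same genotype, values that share the 24 h DMSO group.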
